A study of Mus musculus with 22 samples.

Results

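Genes known as marks of the proximal small intestine were followed through all 22 libraries: Gata4, Apoa1, Apoa4, Apoc3, Fabp1, Rbp2, Lct, Dnase1 and Cyp2j13, 9 of the 54838 genes in the count table. They were selected on measured values of these libraries, namely their level in 1 library, GRWT zinc ileum replicate 3, against the 21 others, so that contrast is described and not tested. The effects of zinc and of genotype were then tested in the 21 others. The label given to the group was at odds with the data for Cyp2j13, which had at most 3 counts in every library.

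The libraries were bulk RNA-seq of small intestine from female FVB/N mice aged 8 to 14 weeks and kept in a conventional animal house. GRWT mice carried the wild-type glucocorticoid receptor, and GRDim mice carried in all their cells a receptor that dimerises poorly, since both alleles had the Dim mutation. The drinking water was plain or held 25 mM ZnSO4 for 7 days, and the study asked which transcripts zinc changes and whether this needs receptor dimers. GRWT mice gave 5 water and 5 zinc libraries, and GRDim mice gave 6 and 6. By label 12 were ileum and 10 were IEC, intestinal epithelial cells lysed from the distal ileum with scraping. No label ties a library to an animal, so p-values measure the spread between these libraries, part of which may be technical. A replicate number is taken here as a name, and no label says that it pairs libraries.

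Enterocytes change their gene programme along the small intestine. In the duodenum and jejunum the transcription factor GATA4 is abundant, and the cells absorb fat, fat-soluble vitamins, iron, folate and sugars. They package lipid with apolipoproteins into chylomicrons, bind fatty acids and retinol with small cytosolic proteins, and carry lactase on the brush border. In the distal ileum GATA4 fades and the cells take up bile acids instead, with the transporter encoded by Slc10a2 and the bile acid binding protein encoded by Fabp6.

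RefSeq promoter windows (GRCm38.p6, 250 bases before to 50 after the gene start) were at hand for 7 of the 9 genes, and were not found for Gata4 and Apoc3. They were searched on both strands for GATA letters (the words AGATAA and also TGATAA, as well as AGATAG and also TGATAG) and for HNF4 letters (CAAAGTCCA). The 7 genes have 9 windows, since Dnase1 and Cyp2j13 have 2 each, which overlap. GATA letters stood in 5 of the 9 windows, those of Lct, Apoa1, Rbp2 and both of Dnase1, which hold the same matches. This made 4 of the 7 genes. They stood in 29.8% of the 32851 windows of this length that were searched, which did not cover every chromosome. HNF4 letters stood in 0 of the 9 and in 0.475% of those searched. A match is a description of letters and not a binding site. Printed here are 1 window each for the lactase, the fatty acid carrier, a chylomicron protein and the retinol carrier, to show windows with and without matches among genes that are high in the same library. Capitals mark matches, 5′ to 3′ on the strand of the gene, and TTATCT is AGATAA read on the other strand. In the Lct window (chr1:128328269-128328568, minus strand) the matches lie at -101 to -96 and -90 to -85 from the start, and in the Rbp2 window (chr9:98490287-98490586, plus strand) at -43 to -38 from a RefSeq start that lies inside the annotated gene. The Fabp1 window (chr6:71199629-71199928, plus strand) and the Apoa4 window (chr9:46240594-46240893, plus strand) hold no match. Their RefSeq starts, too, lie inside the annotated genes.
Lct: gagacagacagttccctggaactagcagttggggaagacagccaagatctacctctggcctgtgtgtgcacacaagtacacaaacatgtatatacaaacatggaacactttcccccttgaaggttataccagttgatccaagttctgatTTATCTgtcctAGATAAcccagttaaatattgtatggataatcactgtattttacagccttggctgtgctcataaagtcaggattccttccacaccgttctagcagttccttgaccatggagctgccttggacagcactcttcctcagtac
Fabp1: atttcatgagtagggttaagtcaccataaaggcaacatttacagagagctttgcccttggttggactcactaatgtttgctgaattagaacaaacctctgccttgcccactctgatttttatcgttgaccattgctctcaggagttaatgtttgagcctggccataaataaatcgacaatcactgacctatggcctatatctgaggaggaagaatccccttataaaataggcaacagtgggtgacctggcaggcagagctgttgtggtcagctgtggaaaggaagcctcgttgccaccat
Apoa4: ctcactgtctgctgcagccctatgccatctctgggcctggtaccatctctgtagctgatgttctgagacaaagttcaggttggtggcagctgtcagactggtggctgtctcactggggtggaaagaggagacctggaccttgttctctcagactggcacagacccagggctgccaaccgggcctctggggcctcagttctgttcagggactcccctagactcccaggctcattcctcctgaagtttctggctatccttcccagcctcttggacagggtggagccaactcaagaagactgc
Rbp2: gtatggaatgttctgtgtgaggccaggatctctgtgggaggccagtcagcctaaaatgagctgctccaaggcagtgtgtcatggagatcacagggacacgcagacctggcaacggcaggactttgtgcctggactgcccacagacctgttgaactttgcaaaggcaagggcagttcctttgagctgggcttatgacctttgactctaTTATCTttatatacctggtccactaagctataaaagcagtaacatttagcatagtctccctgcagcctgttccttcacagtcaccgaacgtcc

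Library totals ran from 13149951 to 15620744 counts, so that 3 counts, taken as the floor of detection, were worth 0.192 to 0.228 CPM, the count scaled by the library total. This floor covers counting error only, whereas the 95% intervals of fold changes come from edgeR's fits and include the spread between libraries. The summed level of 10 smooth-muscle genes parted the libraries into 12 muscle-rich (1661 to 2783 CPM) and 10 muscle-poor ones (184.7 to 259.5 CPM), which the tissue label did not follow. All 3 GRDim water libraries labelled IEC were muscle-rich and the 3 labelled ileum muscle-poor, and on zinc this was turned round. GRWT zinc ileum replicate 3 was muscle-poor (213 CPM), which left 1 muscle-poor GRWT zinc library among the 21 others. Its zinc-regulated genes matched its label, with 2884 CPM of the metallothionein gene Mt1 against 1213 to 2557 CPM in the 10 other zinc libraries and 29.4 to 152 CPM in the 11 water libraries. Its ileal markers did not match its label, with 11.7 CPM of Fabp6 against 4387 to 10866 CPM in the 21 others, and 3.83 CPM of Slc10a2 against 842 to 1604 CPM.

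In GRWT zinc ileum replicate 3, 8 of the 9 genes stood above all other libraries, by 2.92 to 565 times the highest. Gata4 (ENSMUSG00000021944, GRCm38 chromosome 14, 63198922 to 63271692, minus strand), the zinc-finger factor of the proximal segment, was at 159 CPM. In the 21 others it ran from 1.33 to 12.3 CPM with a median of 3.64. The level in this library was thus 12.9 times the highest and 43.7 times the median of the others. Lct (ENSMUSG00000026354, chromosome 1, 128284756 to 128328318, minus strand), the lactase of the brush border, was at 4274 CPM against 0 to 7.56 CPM in the others, 565 times the highest. Ranked by this ratio after adding 1 CPM to both levels, Lct was at rank 1 and Fabp1 at rank 2 of 14114 genes with a mean of at least 1 CPM.

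The apolipoprotein genes of chromosome 9 lie side by side and differed in how far they were raised. Apoa1 (ENSMUSG00000032083, 46228580 to 46230466, plus strand) encodes the main protein of high-density lipoprotein and was at 16770 CPM, 2.92 times the highest of the others, which ran from 1784 to 5746 CPM. Apoc3 (ENSMUSG00000032081, 46232933 to 46235636, minus strand), whose product slows lipoprotein lipase, was at 2346 CPM, 35.4 times the highest (19.0 to 66.2 CPM). Apoa4 (ENSMUSG00000032080, 46240696 to 46243459, plus strand), a chylomicron protein, was at 9652 CPM, 51.2 times the highest (21.8 to 188 CPM). Per kilobase of exon, the median levels of the others were 3006 CPM for Apoa1, 42.2 CPM for Apoa4 and 46.8 CPM for Apoc3, so of these neighbours Apoa1 alone was abundant outside that library. Apoa4 shares 34.9% of its exonic bases with the opposite-strand gene Gm47528. Gm47528 was at 10.7 CPM in this library and at most 0.759 CPM in the others, and without a stated strand setting reads of the pair cannot be told apart.

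Fabp1 (ENSMUSG00000054422, chromosome 6, 71199827 to 71205023, plus strand), the fatty acid binding protein of liver and proximal gut, was at 3965 CPM. In the others it ran from 0.143 to 8.38 CPM with a median of 1.01, and 19 of the 21 were above the floor. The ratio to the highest was 473. Rbp2 (ENSMUSG00000032454, chromosome 9, 98486115 to 98509781, plus strand), which binds retinol in the enterocyte, was at 4199 CPM against 87.0 to 260 CPM, a ratio of 16.2. Dnase1 (ENSMUSG00000005980, chromosome 16, 4036942 to 4040024, plus strand), a secreted nuclease, was at 475 CPM against 1.62 to 13.1 CPM, a ratio of 36.2. It overlaps Trap1 and Gm15879 on the other strand by 1.75% and 16.3% of its exonic bases. Trap1 was lower in this library (57.4 CPM) than in the others (88.6 to 129 CPM).

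Cyp2j13 (ENSMUSG00000028571, chromosome 4, 96027534 to 96077546, minus strand), a cytochrome P450 gene, was the exception. It had 1 count in GRWT zinc ileum replicate 3 (0.0685 CPM) and 0 to 0.212 CPM in the others, at or under the floor everywhere. No level of Cyp2j13 could be told from 0 at this depth, and it was not tested.

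**Figure D1:**
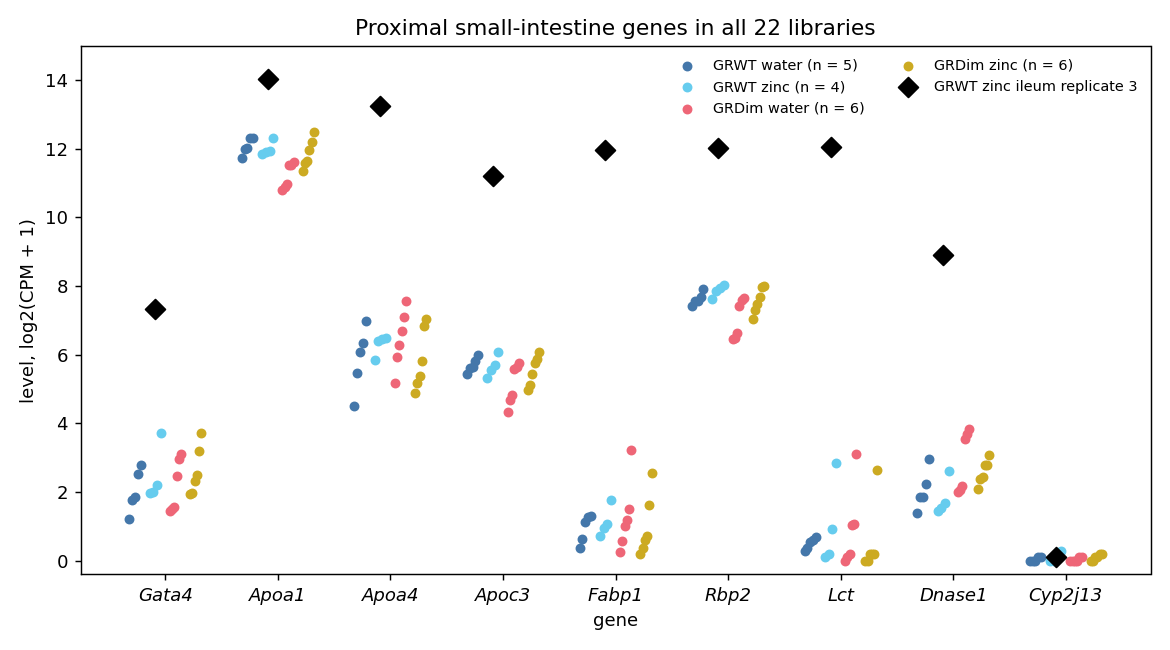
Level of each of the 9 genes as log2(CPM + 1) in every library, with a point per library coloured by condition and a black diamond for GRWT zinc ileum replicate 3. The diamond lies above all 21 points for 8 genes, closest for Apoa1 (2.92 times the highest), and among them for Cyp2j13.

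The count of 8 of 9 genes above the highest of the others is fixed by the choice of genes. Across all genes with a mean of at least 1 CPM, 9.95% were above the highest of the others in this library and 57.7% below the lowest. These shares depend on scaling, and the part that the raised genes have in this through the library total was not tested. The median gene was shifted by -0.74 (log2) with library totals and by -0.17 with trimmed mean of M-values (TMM) factors, under which 26.9% of genes were above and 30.6% below. The same 8 genes were above with TMM factors, at ratios to the highest from 4.31 (Apoa1) to 844 (Lct). In bulk tissue, fewer cells of a type and less RNA per cell cannot be told apart.

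Other genes of the proximal programme were raised in the same library, and ileal genes were low. These lists were drawn up with earlier results of these libraries known. Of 13 further proximal genes, 8 were above the highest of the others, 4 within and 1 below. The glucose and fructose transporter Slc2a2 was at 675 CPM against 0 to 11.8 CPM, and the folate transporter Slc46a1 at 376 CPM against 3.22 to 9.13 CPM. The gene below was Slc40a1, the iron exporter, at 48.8 CPM against 149 to 229 CPM. Of 20 further genes of dietary fat absorption 17 were above and 0 below. Of 12 further brush border hydrolases 10 were above, among them the peptidase gene Ace (5156 CPM against 102 to 295 CPM). Of 11 further genes of vitamin A handling 5 were above and 2 below. Of 10 ileal genes 7 were below and 2 above (Cubn and Amn, which together take up the vitamin B12 complex). By library totals this count below is near the 57.7% of all genes, and with TMM factors it was again 7 of 10, against 30.6% of all genes. The bile acid hormone gene Fgf15 had 2 counts in this library against 1.57 to 103 CPM in the others.

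Among 14 further factors of segment identity, 5 were above, 7 below and 2 within by library totals. With TMM factors this became 7, 3 and 4, so part of the lower side of this list rested on the scaling. Gata6 and Pdx1 were among those above under library totals. Gata5, Cdx2 and Hnf4a read 0.782, 0.429 and 0.484 times the median of the muscle-poor others, by library totals, while with TMM factors Gata5 was above the highest of the others and Cdx2 and Hnf4a were within their range.

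Hepatocyte and stomach markers were near 0 in this library, and pancreas and colon markers were partly present. Of 11 hepatocyte genes 7 had 0 counts and 0 were above the highest of the others, with a summed level of 2.40 CPM against 2.12 to 397 CPM. Of 12 exocrine pancreas genes 6 had 0 counts and 1 was above (3 with TMM factors), with a summed level of 29.6 CPM against 11.3 to 42.4 CPM, mostly from Clps and Cela1. Of 11 genes of stomach and Brunner gland 7 had 0 counts and 2 were above (3 with TMM factors), with a summed level of 1.64 CPM against 0 to 0.913 CPM. Of 9 colon genes 2 were above and 1 below (4 and 1 with TMM factors), with a summed level of 331 CPM against 263 to 379 CPM. Of 10 enterocyte genes 5 were below and 1 above by library totals, and 1 below and 4 above with TMM factors. Their sum was 19651 CPM against 20446 to 31553 CPM.

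**Figure D2:**
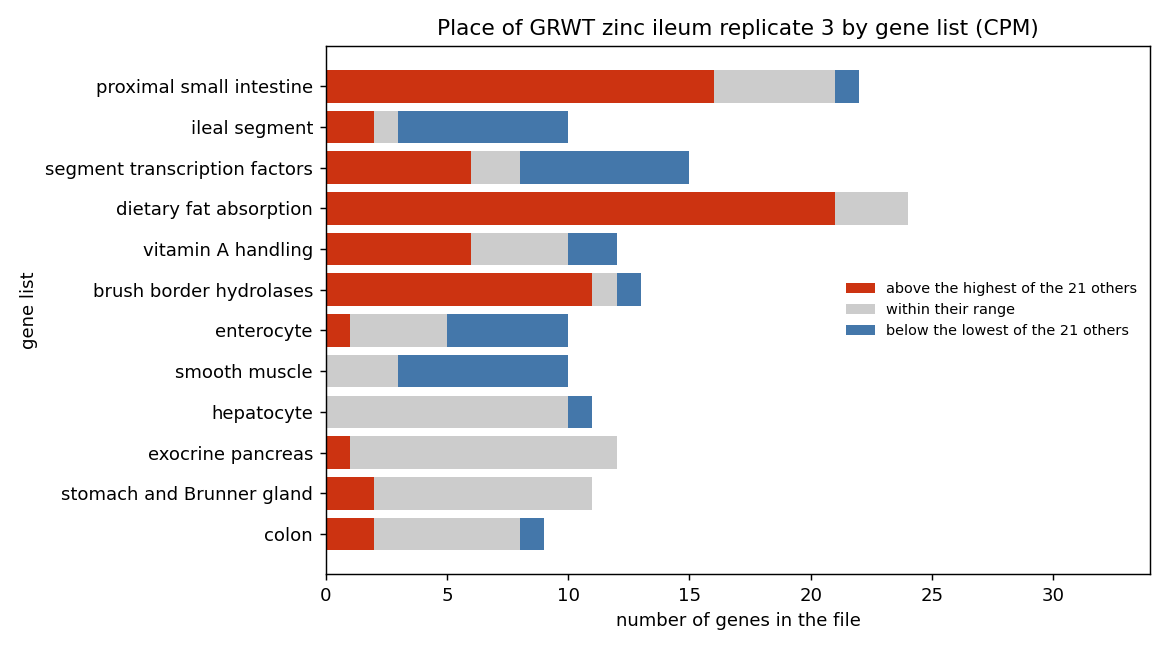
Number of genes per list (horizontal axis) that in GRWT zinc ileum replicate 3 lay above the highest, within the range or below the lowest of the 21 others, in CPM. Proximal, fat absorption and hydrolase lists lie mostly above, and the ileal list has 7 of 10 genes below, where 9.95% of all genes lay above and 57.7% below.

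Outside the 9 genes and among genes with a proper name, the 10 with the largest ratio to the highest of the others, again after adding 1 CPM, were Cyp2b10, Cyp2c29, Slc23a1, Sult6b2, Cyp2c66, Slc2a2, Enpp3, Reg1, Slc46a1 and Leap2. Cyp2b10, a drug-metabolising cytochrome P450, was at 1573 CPM against 0 to 3.73 CPM. Slc23a1, a vitamin C transporter, was at 167 CPM against 0.0734 to 0.964 CPM. The 10 furthest below the lowest were Fabp6, Slc10a2, Slc25a48, Tmigd1, Mgat4c, Suox, Slc5a8, Scd2, Hoxb9 and Cldn2. Hoxb9, a homeobox gene of posterior position, had 1 count in this library against 35.3 to 68.2 CPM in the others.

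Among the 21 other libraries, some of the genes went with muscle content. In each of the 4 conditions every muscle-poor library was above every muscle-rich library in CPM for Gata4, Lct, Rbp2 and Dnase1, 4 of the 9 genes, and 5.59% of all genes with a mean of at least 1 CPM did this. For Lct this order cannot be told from ties, since a muscle-poor and a muscle-rich library had 7 counts each in GRWT mice on water and 2 counts each in GRDim mice on zinc. The split was taken from the data and has no test. For Gata4 the 9 muscle-poor libraries ran from 4.56 to 12.3 CPM with a median of 6.75, and the 12 muscle-rich ones from 1.33 to 3.95 CPM with a median of 2.73. For Dnase1 the muscle-poor libraries had a median of 6.80 CPM and the muscle-rich ones of 2.80 CPM, with ranges that overlapped (3.73 to 13.1 and 1.62 to 4.39 CPM). Fabp1 went the other way by its medians (0.532 and 1.31 CPM), and was above in the muscle-rich libraries in 1 of 4 conditions.

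Fabp1 is also a liver gene, and liver transcripts were present in some libraries. The summed level of 11 hepatocyte genes was highest in GRDim zinc ileum replicate 1 (397 CPM), followed by GRDim zinc ileum replicate 2 (175 CPM) and GRDim water IEC replicate 4 (148 CPM). Fabp1 was at 4.90, 2.05 and 1.84 CPM in these libraries, against a median of 1.01 CPM. The highest Fabp1 level of the 21, 8.38 CPM, was in GRDim water ileum replicate 1, where Lct (7.56 CPM), Apoa4 (188 CPM) and Dnase1 (13.1 CPM) were also at their highest. The part of liver transcripts in the level of Fabp1 was not tested.

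Zinc in GRWT mice changed none of the 8 tested genes at the thresholds of the study, applied here to edgeR's quasi-likelihood test (adjusted p under 0.05 and a log2 fold change beyond 0.8), and 2 had an unadjusted p under 0.05, as did 11% of all genes. DESeq2 gave an adjusted p for 4 of them (Apoa1, Apoa4, Apoc3 and Rbp2) and called 0. Over all 16332 genes 0.11% were called higher and 0.0367% lower. Gata4 came nearest, at 4.79 and 5.87 CPM on water and 12.3 CPM on zinc in the muscle-poor libraries, and 1.33, 2.37 and 2.61 CPM on water and 2.94, 2.99 and 3.64 CPM on zinc in the muscle-rich ones. All 4 zinc libraries were thus above the water libraries of the same muscle content. The share of all genes that separate in this way was not counted, here or in the comparisons below. The log2 fold change of Gata4 was 0.81 ± 0.24 (SE, edgeR, adjusted p = 0.162). Apoa1 differed by -0.05 (95% interval -0.35 to 0.25) and Apoc3 by 0.03 (-0.35 to 0.40). Lct had a wide interval (log2 fold change 2.10, from -0.49 to 4.70), and its only high GRWT value among the 21, 6.14 CPM, was in GRWT zinc ileum replicate 2, the lone muscle-poor library of its condition.

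In GRDim mice Apoa1 and Rbp2 were higher on zinc, under the fold cut-off. Of the 8 tested genes 2 had an adjusted p under 0.05 in edgeR's test, as did 10.7% of all genes, and 0 of these passed the fold cut-off too. An unadjusted p under 0.05 was found for 4 of the 8 and for 26% of all genes. DESeq2 gave an adjusted p for 7 of them and called 0. Apoa1 in the muscle-rich libraries was at 1784, 1895 and 2014 CPM on water and at 2594, 3088 and 3185 CPM on zinc. In the muscle-poor libraries it was at 2973, 2973 and 3128 CPM on water and at 3995, 4738 and 5746 CPM on zinc. The groups did not overlap on either side of the split, so 6 of 6 zinc libraries were above the water libraries of the same muscle content. How many of all genes do this was not counted. The log2 fold change was 0.68 ± 0.12 (SE, edgeR adjusted p = 0.00234), and within the split it was 0.67 on the muscle-rich side (adjusted p = 0.0017) and 0.70 on the muscle-poor side (adjusted p = 0.0396). With the tissue label as covariate in place of the split the change of Apoa1 was 0.72 and did not pass (adjusted p = 0.175), nor did it without covariate (0.68, adjusted p = 0.188) or with all 22 libraries (0.69, adjusted p = 0.270). In ileum libraries alone it was 0.14 (adjusted p = 0.869). In GRDim mice zinc cannot be told apart from muscle content within either label, nor from the label on either side of the split.

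Rbp2 was at 87.0, 88.6 and 98.7 CPM on water and 131, 158 and 178 CPM on zinc in the muscle-rich libraries of GRDim mice. In the muscle-poor ones it was at 170, 193 and 200 CPM on water and 206, 252 and 257 CPM on zinc, again without overlap. Its log2 fold change was 0.56 ± 0.13 (SE, edgeR adjusted p = 0.00836). Rbp2 did not pass with the tissue label as covariate (0.57, adjusted p = 0.376), without covariate (0.51, adjusted p = 0.446), with all 22 libraries (0.64, adjusted p = 0.638) or in ileum libraries alone (0.27, adjusted p = 0.504). Within the split Rbp2 passed the adjusted p on the muscle-rich side (0.795, edgeR adjusted p = 0.00502), just under the fold cut-off and so not called. On the muscle-poor side it did not pass (0.37, adjusted p = 0.0755). Apoc3 (0.42 ± 0.16, adjusted p = 0.0891 by edgeR) and Gata4 (0.59 ± 0.20, adjusted p = 0.0625) did not pass, and with DESeq2 both did (adjusted p = 0.0275 and 0.0388). Over all genes 0.869% were called higher and 0.82% lower. In the muscle-rich libraries alone Gata4 was called higher (0.84, edgeR adjusted p = 0.0439), as were 0.74% of all genes. In the muscle-poor libraries alone Dnase1 was called lower (-0.87, adjusted p = 0.0225), as were 0.879% of all genes. Dnase1 there was at 10.6, 11.8 and 13.1 CPM on water and 5.85, 5.87 and 7.36 CPM on zinc, whereas in the muscle-rich libraries its change was 0.30 (adjusted p = 0.429). On both sides the libraries labelled IEC had the lower mean of Dnase1, and the label and zinc cannot be told apart there.

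GRDim mice on water had less Apoa1 and more Dnase1 than GRWT mice on water. Apoa1 was at 4098, 4126 and 5070 CPM in the muscle-rich GRWT libraries and at 1784, 1895 and 2014 CPM in the muscle-rich GRDim libraries. In the muscle-poor ones it was at 3428 and 5092 CPM in GRWT and at 2973, 2973 and 3128 CPM in GRDim mice, so that 6 of 6 GRDim libraries were under every GRWT library. How many of all genes separate like this was not counted. The log2 fold change was -0.97 ± 0.13 (SE, edgeR adjusted p = 3.79e-05), and Apoa1 was called in all 11 fits that left out a library. On the muscle-rich side it was -1.23 (adjusted p = 5.86e-07), and on the muscle-poor side -0.59 and not called (adjusted p = 0.115). In ileum libraries alone it was not called either (-0.69, edgeR adjusted p = 0.0748). Of 24 fits with other settings or without 1 library, 22 called Apoa1. Over all genes 3.9% were called higher and 3.47% lower in this comparison, so 1 called lower and 1 called higher of 8 tested is read against that.

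Dnase1 in muscle-rich libraries was at 1.62, 2.61 and 2.63 CPM in GRWT and 2.98, 3.19 and 3.55 CPM in GRDim mice. In the muscle-poor libraries it was at 3.73 and 6.80 CPM in GRWT and at 10.6, 11.8 and 13.1 CPM in GRDim mice. GRDim was higher on both sides of the split without overlap, and the share of all genes that do so was not counted. The log2 fold change was 0.84 ± 0.20 (SE, edgeR adjusted p = 0.00345), just past the cut-off of 0.8, and 4 of 11 fits without 1 library brought it under the cut-off (0.70 at the lowest, without GRWT water ileum replicate 2). On the muscle-poor side it was 1.07 (adjusted p = 0.0233), where 0.446% of all genes were called higher, and on the muscle-rich side 0.50 (adjusted p = 0.0742). With the tissue label in place of the split, Dnase1 was not called (1.03, edgeR adjusted p = 0.176). Nor was it called without covariate (1.09, adjusted p = 0.193) or with all 22 libraries (0.67, adjusted p = 0.7455). Of 24 fits with other settings or without 1 library, 15 called it.

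Apoc3 and Rbp2 were lower in GRDim mice on water by amounts under the fold cut-off. In edgeR's test 4 of the 8 tested genes had an adjusted p under 0.05. An unadjusted p under 0.05 was found for 4 of the 8 and for 6970 of all 16332 genes. Apoc3 changed by -0.69 ± 0.16 (SE, edgeR adjusted p = 0.00404) and Rbp2 by -0.68 ± 0.13 (adjusted p = 0.000817). Neither passed with the tissue label as covariate (adjusted p = 0.341 for Apoc3 and 0.255 for Rbp2), without covariate (0.356 and 0.269) or in ileum libraries alone (0.490 and 0.124), and on the muscle-poor side Apoc3 was at -0.18 (adjusted p = 0.586) and Rbp2 at -0.35 (adjusted p = 0.153). In the muscle-rich libraries alone, Apoa1, Apoc3 (-1.10, adjusted p = 0.000463) and Rbp2 (adjusted p = 0.000115) were all called lower, where 5.43% of all genes were. In those libraries Apoc3 was at 47.5, 48.8 and 55.6 CPM in GRWT and 19.0, 24.5 and 27.1 CPM in GRDim mice, with no overlap. In the muscle-poor libraries its values overlapped, with 41.9 and 62.7 CPM in GRWT and 47.0, 48.5 and 52.7 CPM in GRDim mice. All muscle-rich GRDim water libraries carried the IEC label and the muscle-poor ones the ileum label, so muscle content and label cannot be told apart in this group. Gata4 differed by 0.00 (95% interval -0.44 to 0.44), Apoa4 by 0.39 (-0.29 to 1.07), Fabp1 by 1.26 (-0.72 to 3.24) and Lct by 1.13 (-1.31 to 3.56).

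**Figure D3:**
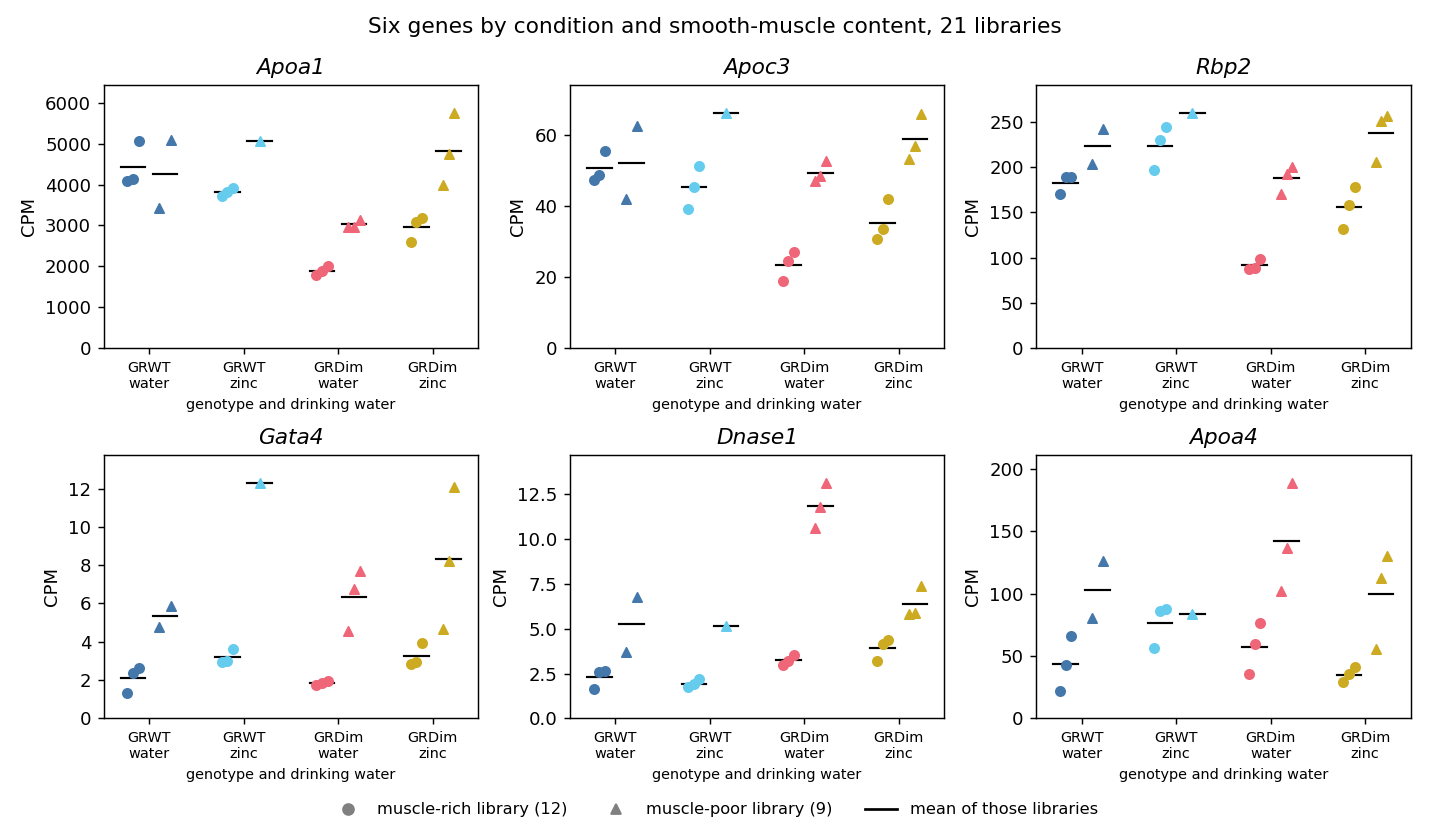
CPM (vertical axis, from 0) of 6 genes in the 21 libraries by genotype and drinking water, circles for muscle-rich and triangles for muscle-poor libraries, black bars for their means. GRDim water libraries are lowest for Apoa1, with means of 1898 CPM (muscle-rich) and 3025 CPM (muscle-poor), and highest for Dnase1 among muscle-poor libraries (mean 11.9 CPM).

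Whether zinc acted differently in the genotypes was asked with the interaction term, which took 2 genes of all 16332 past the adjusted p in edgeR's test (0.0122%) and 0 of the 8. Of the 8 genes 2 had an unadjusted p under 0.05, as did 10.6% of all genes. DESeq2 gave an adjusted p for 4 (Apoa1, Apoa4, Apoc3 and Rbp2), and Apoa1 passed. For Apoa1 the zinc difference was larger in GRDim than in GRWT mice by 0.74 ± 0.19 on the log2 scale (SE, edgeR adjusted p = 0.286). The adjusted p was 0.0129 with DESeq2, and it ran from 0.0198 (without GRWT water ileum replicate 3) to 0.498 over 21 fits without 1 library. Apoa4 had the opposite sign (-1.14, 95% interval -2.14 to -0.14, adjusted p = 0.419). The comparisons share libraries: those of GRDim mice on water, low in Apoa1, enter the genotype comparison, the zinc comparison in GRDim mice and the interaction.

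**Figure D4:**
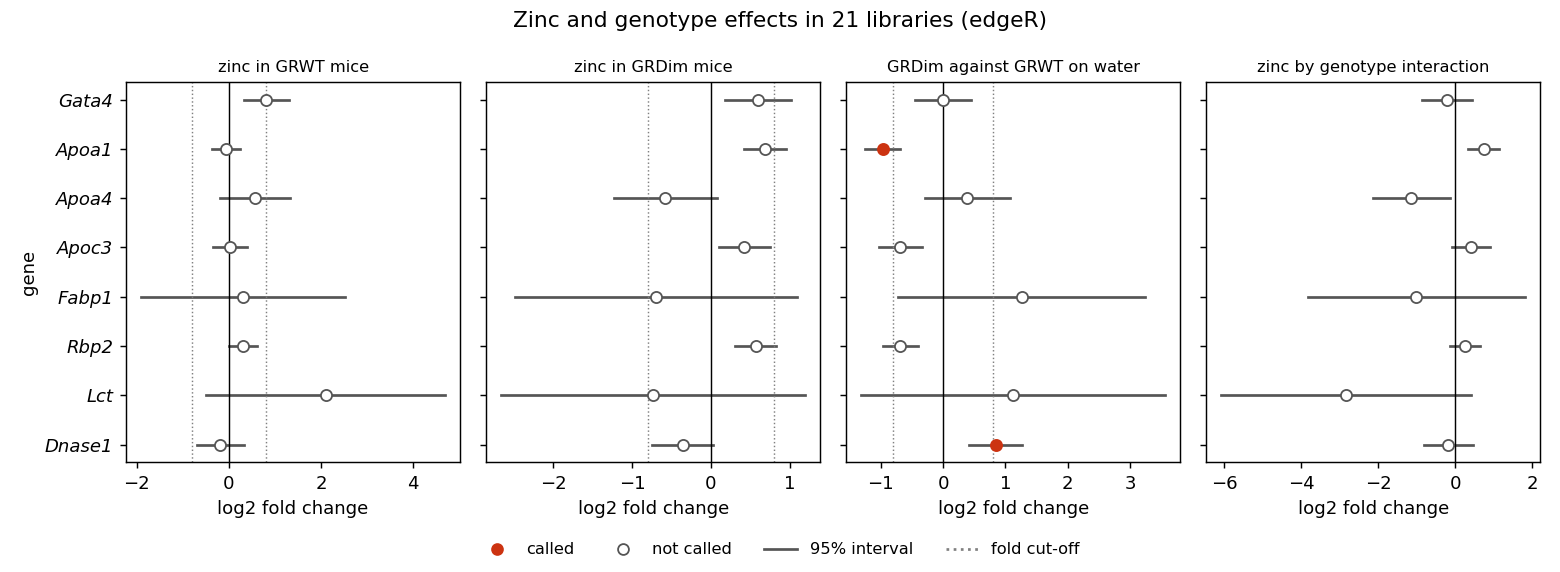
Log2 fold changes (points) and 95% intervals (lines) of the 8 tested genes in the 21 libraries, with filled points for called genes and dotted lines at the fold cut-off of 0.8. Apoa1 (-0.97) and Dnase1 (0.84) in GRDim against GRWT mice on water are the filled points, and Lct and Fabp1 have the widest intervals.

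Some other genes of the proximal programme were lower in GRDim mice on water. Of 11 tested proximal genes outside the 9, 3 were called lower, with a median log2 fold change of -0.38 for the 11 against -0.00 over all genes. Counts of called list genes stand beside 3.47% of all genes called lower and 3.9% called higher in this comparison. The called ones were Slc2a2 (-4.45 ± 0.78, SE, edgeR adjusted p = 0.000451), the fatty acid binding protein gene Fabp2 (-1.04, adjusted p = 2.61e-05) and the trehalase gene Treh (-0.81, adjusted p = 0.00054). Slc2a2 was low in the 21 libraries, with a median of 1.37 CPM, and 15 of them were above the floor. Of 11 genes of vitamin A handling 4 were called lower: Lrat, which esterifies retinol (-1.34), Bco2, which cleaves carotenoids (-0.88), the retinol dehydrogenase gene Rdh7 (-1.72) and the retinal dehydrogenase gene Aldh1a1 (-1.17), with a median of -0.67. Of 12 hydrolases 3 were lower, among them the sucrase gene Sis (-0.90), and of 19 genes of fat absorption 1 was (Fabp2), near the share of all genes. The ileal list did not go the other way, with 2 of 10 called lower (Cubn at -1.10 and Nr0b2 at -2.23), a median of -0.48, and Fabp6 at -0.51 (adjusted p = 0.0155). Of 13 factors of segment identity only Onecut2 was called (1.38, adjusted p = 0.00513). The median was 0.01 for 10 enterocyte genes, -0.44 for 10 smooth-muscle genes, 0.33 for 6 colon genes, 0.03 for 3 pancreas genes (Clps lower, -1.70) and 2.19 for 10 hepatocyte genes (Ttr higher, 1.66). Stomach genes were too low to test. The part of these other cells in the values of the 9 genes was not tested.

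Zinc in GRDim mice raised single genes of the same lists, where 0.869% of all genes were called higher and 0.82% lower. Aldh1a1 (1.22, edgeR adjusted p = 7.35e-06) and Bco2 (0.82, adjusted p = 0.0469) were called higher among 11 genes of vitamin A handling, with a median of 0.49. The neutral endopeptidase gene Mme (1.03, adjusted p = 0.00388) was called among 12 hydrolases, and Cubn (0.85, adjusted p = 2.41e-05) among 10 ileal genes. The 11 proximal genes outside the 9 had a median of 0.24, against 0.09 with zinc in GRWT mice. Outside the gut programme Ttr was called higher (1.05) and the colon gene Car4 lower (-0.97). The GRDim water libraries are shared between this comparison and that of the genotypes.

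The genes that went with the members across the 21 libraries were found by Pearson correlation with the mean standardised level of the 8 measurable genes, after taking out the means of the split, among 13104 candidates. The 10 most alike were Anxa13 (r = 0.85), Rragd, Gip, Plpp1, Pfkfb4, Plb1, Mogat2, Enpp7, Slc34a2 and Fam151a (r = 0.76). These are descriptions over 21 libraries that share conditions. Gip, a hormone gene of the proximal gut, ran from 0.145 to 14.4 CPM and was at 104 CPM in GRWT zinc ileum replicate 3. Enpp7, an alkaline sphingomyelinase of the brush border, ran from 0.941 to 140 CPM and was at 1435 CPM there. The likeness did not always carry over to that library: Slc34a2, a phosphate transporter, was at 93.9 CPM against 508 to 1273 CPM, and Plb1 at 0.616 CPM against 0.651 to 83.4 CPM. The 10 genes were picked over these same libraries with differences between conditions left in, so their tests are not independent of that choice. Enpp7 (1.93 ± 0.44, edgeR adjusted p = 0.0117) and Fam151a (2.15 ± 0.55, adjusted p = 0.0201) were called higher with zinc in GRDim mice, as were 0.869% of all genes. With zinc in GRWT mice the values were 1.92 ± 0.50 for Enpp7 (adjusted p = 0.136) and 1.31 ± 0.54 for Fam151a (adjusted p = 0.375), and the interaction was 0.01 (adjusted p = 0.998) and 0.84 (adjusted p = 0.738) by edgeR. Fam151a was called lower in GRDim mice on water (-1.95 ± 0.61, edgeR adjusted p = 0.0215), as were 3.47% of all genes. Among the 9 genes themselves, with the means of the split taken out in the same way, r was 0.92 for Apoa1 and Apoc3, 0.87 for Apoa1 and Rbp2 and 0.88 for Apoc3 and Rbp2, and it was -0.69 for Apoa1 and Dnase1 (n = 21). For Gata4 r was 0.06 with Dnase1 and with Apoa4, and 0.49 with Lct.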

How the data were processed

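The deposited file holds raw read counts per Ensembl gene. The authors made stranded single-end libraries, and their notes name Trimmomatic, HISAT2 2.0.4 and featureCounts on mm10, without multimapping reads. The annotation release and strand setting are not given in the sources used here. Names and positions came from GENCODE vM21, and 54723 identifiers matched a symbol. A pair of columns share a name and are unnumbered. CPM is the count scaled by the library total.

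The 9 genes, the lists and the rule for named genes were chosen with earlier results of these data known. The rule took the 9 genes, the 10 highest and 10 lowest other genes of GRWT zinc ileum replicate 3, the 10 most alike, list genes that were called and a few fixed segment genes, of which 1 is not reported here. Tests used edgeR 4.0.16 in R 4.3.3 (quasi-likelihood, TMM, filterByExpr, muscle split as covariate) on 21 libraries, with Benjamini-Hochberg adjustment over 16332 genes, and were tested on simulated data. Alternatives were DESeq2 1.42.0, its size factors, filters, covariates, subsets, a replicate block and leaving out each library. The scaling of the selected library was compared after its values were seen. The study names DESeq2 and no covariate. The description of the series mentions dexamethasone, which no label names.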

Additional observations from a re-analysis of the deposited data

Results flagged for a closer look

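A library was noted when its gap to the nearest of its group was a larger share of the group's range than Dixon's 95% value. Groups of 4 to 6 libraries that did not hold GRWT zinc ileum replicate 3 numbered 32, of which 8 had such a library. Chance alone gives about 1 in 20 for independent groups of like libraries. The groups here share libraries between genes and mix muscle-rich with muscle-poor ones, so the 8 of 32 cannot be set against that.

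GRWT zinc ileum replicate 3 stood apart in the 5 GRWT zinc libraries for 8 genes. The genes had been chosen on this library, so these gaps are a description and no test. The gap was 0.94 of the range for Gata4, 0.9996 for Fabp1, 0.997 for Apoa4, 0.999 for Lct, 0.897 for Apoa1, 0.988 for Apoc3, 0.984 for Rbp2 and 0.993 for Dnase1.

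Among the 4 GRWT zinc libraries that remained, replicate 2 of the ileum label stood apart for Gata4 (12.3 CPM, 0.926 of the range), Lct (6.14 CPM, 0.867), Apoa1 (5057 CPM, 0.846) and Dnase1 (5.15 CPM, 0.868). It was the highest for each and the only muscle-poor library of the 4. Replicate 5 of the IEC label was the lowest for Apoa4 (56.1 CPM, 0.856).

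In GRDim mice on water, ileum replicate 1 stood apart for Fabp1 (8.38 CPM, 0.799) and Lct (7.56 CPM, 0.854). In GRDim mice on zinc, IEC replicate 4 stood apart for Lct (5.25 CPM, 0.972).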

How the results depend on the processing

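Of the 8 tested genes, 1 was called higher (Dnase1) and 1 lower (Apoa1) in GRDim mice on water. The count higher fell to 0 with the tissue label as covariate, without covariate, with all 22 libraries, in muscle-rich libraries alone and in IEC libraries alone. The count lower rose to 3 in muscle-rich libraries alone, IEC libraries alone and with the replicate block, and fell to 0 in muscle-poor libraries alone and ileum libraries alone. For zinc in GRDim mice, 0 were called: 1 was higher in muscle-rich libraries alone (Gata4) and with the replicate block (Apoa1, 0.83, edgeR adjusted p = 5.85e-05), and 1 lower in muscle-poor libraries alone (Dnase1). For zinc in GRWT mice, 1 was higher in ileum libraries alone (Gata4, 1.24, adjusted p = 0.0431). For the interaction, 1 passed (Apoa1) in muscle-rich libraries alone, with DESeq2 (which gave an adjusted p for 4 of the genes) and with the replicate block. Fits without 1 library gave 0 to 1 higher and 1 to 2 lower for genotype, and 0 to 1 for the interaction. The genotype count higher was 0 without GRDim water ileum replicate 1, unnumbered library a, GRWT water ileum replicate 1 or 2. It was 2 lower, and 1 for the interaction, without GRWT water ileum replicate 3. The causes were not tested.

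For same-numbered libraries, r of 21 pairs ran from -0.116 to 0.143, and 3 were over 0.1. Pairs of unlike number were not computed beside them, so this does not settle whether the numbers pair libraries. Of 374 values of single genes under other settings, 39 changed sign, and of 424 without 1 library 13 did, each called in neither fit. Gata4 for genotype, at 0.00, was among them. Over all genes the calls went from 1203 to between 138 and 1735 for genotype, from 276 to 76 and 622 for zinc in GRDim mice, from 24 to 11 and 43 for zinc in GRWT mice, and from 2 to 0 and 595 for the interaction. For IEC libraries alone, zinc in GRDim mice could not be fitted beside the split. Depth limits Lct and Fabp1, which lay near the floor in many of the 21 libraries, and Cyp2j13 in all 22.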
